A study of Mus musculus with 12 samples.

Results

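Genes that mark cancer-associated fibroblasts, myofibroblasts, pericytes and smooth muscle were followed in cultures and tumors of 4T1, a mouse mammary carcinoma line used as a model of triple-negative breast cancer. The 33 genes were taken from the count tables by symbol, out of 39017 genes in each table. They were grouped by role into 6 receptors and surface proteins, 6 small leucine-rich proteoglycans, 6 other matrix proteins, 7 secreted signals or complement genes, and 8 contractile, smooth muscle and pericyte genes.

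RNA was sequenced in 12 libraries, 3 in each of 4 groups. The cells compared were both 4T1: cells whose genotype is given as POGZ KO, and cells titled VC whose genotype is given as POGZ WT. The abbreviation VC is not expanded in the labels, and the cells are called control-labelled here. A first pair of groups was grown in culture, in DMEM with 10% FBS to 75% confluency. The other pair was tumors, made by placing 50k cells in the mammary fat pad (MFP-4) of BALB/c mice at 8 weeks of age and resected after 28 days. BALB/c is the strain from which 4T1 was derived. POGZ is a zinc finger protein of chromatin. The labels name no guide, vector or clone, no further treatment, and no separate cultures or clones behind the 3 culture libraries of a group, so a p-value in cultures measures the spread between libraries that may be technical replicates. The tumors are titled POGZ_VC_8447, POGZ_VC_8448 and POGZ_VC_8451 (control-labelled) and POGZ_KO_8454, POGZ_KO_8455 and POGZ_KO_8459 (knockout-labelled), and the tumors are called by their titles.

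A carcinoma grown in the fat pad holds host fibroblasts that lay down collagen, proteoglycans and matricellular proteins, and pericytes that wrap its vessels. Fibroblasts are commonly recognised by platelet-derived growth factor (PDGF) receptors, Fap, Pdpn and Thy1, activated myofibroblasts also by smooth muscle actin (Acta2) and periostin (Postn), and pericytes by Rgs5, Pdgfrb and Cspg4. Carcinoma cells that have undergone epithelial to mesenchymal transition can make several of the same RNAs, and the cultures show which of them 4T1 cells make on their own. In a bulk tumor, fewer cells of a type and less RNA per cell cannot be told apart.

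Libraries held between 14724518 and 21863223 counts for cultures and between 4712001 and 13043831 for tumors, and each control-labelled tumor was shallower than each knockout-labelled one. Pogz itself was at 50.9, 52.0 and 48.1 CPM (counts scaled to the library total) in the control-labelled cultures and at 68.4, 67.8 and 68.6 in those labelled knockout (log2 fold change 0.45 ± 0.04 SE, edgeR adjusted p = 3.66e-06). In tumors it was at 86.0, 103 and 109 CPM with the control label and at 131, 106 and 84.5 with the knockout label. No loss of Pogz RNA was thus seen with the knockout label: it was higher in culture and did not separate the tumors. Whether protein was lost was not tested, and the groups are named by their labels throughout. The carcinoma identity of the cells was checked with 9 epithelial carcinoma markers, all with counts in cultures and tumors, which summed to between 3661 and 4248 CPM in cultures and between 1932 and 2733 in tumors.

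Most of these genes were almost silent in culture and higher in tumors. Their tumor levels varied widely, with means from 0.287 RPKM (CPM over exon length, Omd) to 91.5 (C3) under the control label. Of the 33, 8 had no read in any of the 6 cultures: the surface protein Thy1, the proteoglycans Dcn and Lum, the matrix genes Dpt and Fbln1, the Wnt modulator Sfrp2, the chemokine Cxcl12 and the muscle intermediate filament Des. With the control label, 28 of the 30 genes that passed the filter on low counts were called higher in tumors than in cultures (edgeR quasi-likelihood test, Benjamini-Hochberg adjusted p under 0.05), where 35.7% of all genes tested were called higher. With the knockout label 29 of 32 were called higher, against 35.3% of all genes, and none was called lower under either label. A gene that passed the filter only through its tumor libraries had to differ, so the counts describe these genes and are not support for a difference of the list. The genes that did not pass were Omd, Dpt and Clec3b with the control label and Clec3b with the knockout label.

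The median log2 fold change of tumors over cultures was 6.03 with the control label and 6.74 with the knockout label, against 0.07 and 0.13 over all genes. Fitted values of genes without a read in culture depend on the prior count. With those genes set to the lower bound that a floor of 3 counts per library gives, the medians were 4.97 and 5.74. The bounds ran from at least 10.7-fold higher (Des) to at least 282-fold higher (Thy1) in control-labelled tumors, and from at least 36.5-fold (Des) to at least 431-fold (Dcn) in knockout-labelled ones. Pdpn was also without a read in the control-labelled cultures, which puts it at least 106-fold higher in their tumors. Intervals and floors cover counting error only.

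Receptors and surface proteins were called higher in tumors in 6 of 6 cases under each label. Thy1, a cell surface glycoprotein of fibroblasts and other cells, had the highest level per length of this group, 15.4 ± 1.74 RPKM (CPM over exon length; SD, n = 3) in control-labelled and 22.9 ± 9.03 in knockout-labelled tumors. Fap, a serine protease of activated fibroblasts, had the lowest, 2.31 ± 0.658 and 2.92 ± 0.80 RPKM. Pdgfrb, the PDGF receptor of pericytes, went from 1 read in all 3 control-labelled cultures to 56.6 ± 9.93 CPM in tumors. Against the pooled culture reads that is a ratio of 3107, with an exact 95% interval for counting error of 558 to 122731. Pdgfra, the PDGF receptor of fibroblasts, was already at 26.5 ± 1.68 CPM in control-labelled cultures, and its rise in their tumors was smaller (log2 fold change 1.12 ± 0.11, edgeR adjusted p = 5.93e-05).

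Among the small leucine-rich proteoglycans, which bind and space collagen fibrils, Lum had the highest level per length in tumors (11.1 ± 2.69 RPKM control-labelled, 14.2 ± 5.50 knockout-labelled) and Omd the lowest (0.287 ± 0.183 and 0.478 ± 0.186). Dcn, Lum, Prelp and Aspn were called higher in tumors under both labels. Ogn was not called under either (log2 fold change 1.09 ± 0.45 and 0.98 ± 0.41, edgeR adjusted p = 0.0594 and 0.0736). Ogn, Omd and Aspn lie within Cenpp, a kinetochore gene on the opposite strand of chromosome 13. Ogn and Omd share 0 exonic bases with Cenpp, and Aspn shares 7 of 2354. Whether reads were counted by strand is not given in the sources used here, so low counts of these 3 genes may include reads of unspliced Cenpp RNA.

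The other matrix genes held a pair of very abundant RNAs, which differed from each other in culture. Postn, a matricellular protein of activated fibroblasts, was at 0.72 RPKM in control-labelled cultures and at 49.4 ± 9.39 in their tumors. Fbln2, a fibulin of elastic fibers and basement membranes, was at 54.1 RPKM in the same cultures and 48.2 ± 25.1 in the tumors. It was the only tested gene of the 33 besides Ogn not called higher with the control label (log2 fold change -0.17 ± 0.31, edgeR adjusted p = 0.651). With the knockout label Fbln2 was called (0.86 ± 0.29, edgeR adjusted p = 0.0400), a call that was lost without either tumor POGZ_KO_8455 (0.50) or tumor POGZ_KO_8459 (0.77) and without each of the 3 cultures (edgeR adjusted p from 0.101 to 0.186 in these 5 fits). It was also lost at about the same fold change under another scaling (RLE, 0.86, edgeR adjusted p = 0.0532) and without the filter on low counts (0.76, edgeR adjusted p = 0.0565). Fbln1 had the lowest tumor level of the group, 0.999 ± 0.443 and 2.12 ± 0.994 RPKM.

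Of the secreted genes, complement component C3 had the highest level per length in tumors, 91.5 ± 52.0 and 101 ± 64.2 RPKM, and was also made in culture at 27.1 RPKM with the control label. Clec3b, which encodes tetranectin, had 0.908 ± 0.806 and 1.20 ± 0.98 RPKM in tumors, the lowest over the 6 tumors. In control-labelled tumors it did not differ beyond its spread from Cxcl12 (0.663 ± 0.176), Pi16 (1.14 ± 0.508) or Igf1 (1.28 ± 0.406). Sfrp1, a secreted Wnt inhibitor, was made in culture at 15.1 ± 1.67 CPM with the control label and was called higher in the control-labelled tumors (log2 0.97 ± 0.26, edgeR adjusted p = 0.0105). It was not called with the knockout label (0.76 ± 0.39, edgeR adjusted p = 0.133). The contractile and pericyte genes were called higher in tumors in 8 of 8 cases under each label. Acta2 led them per length with 23.1 ± 3.73 and 30.7 ± 9.72 RPKM, and Des, the muscle intermediate filament, was lowest in control-labelled tumors with 0.466 ± 0.059. In knockout-labelled tumors Des (1.67 ± 1.11) overlapped in spread with Cspg4 and Cnn1.

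**Figure D1:**
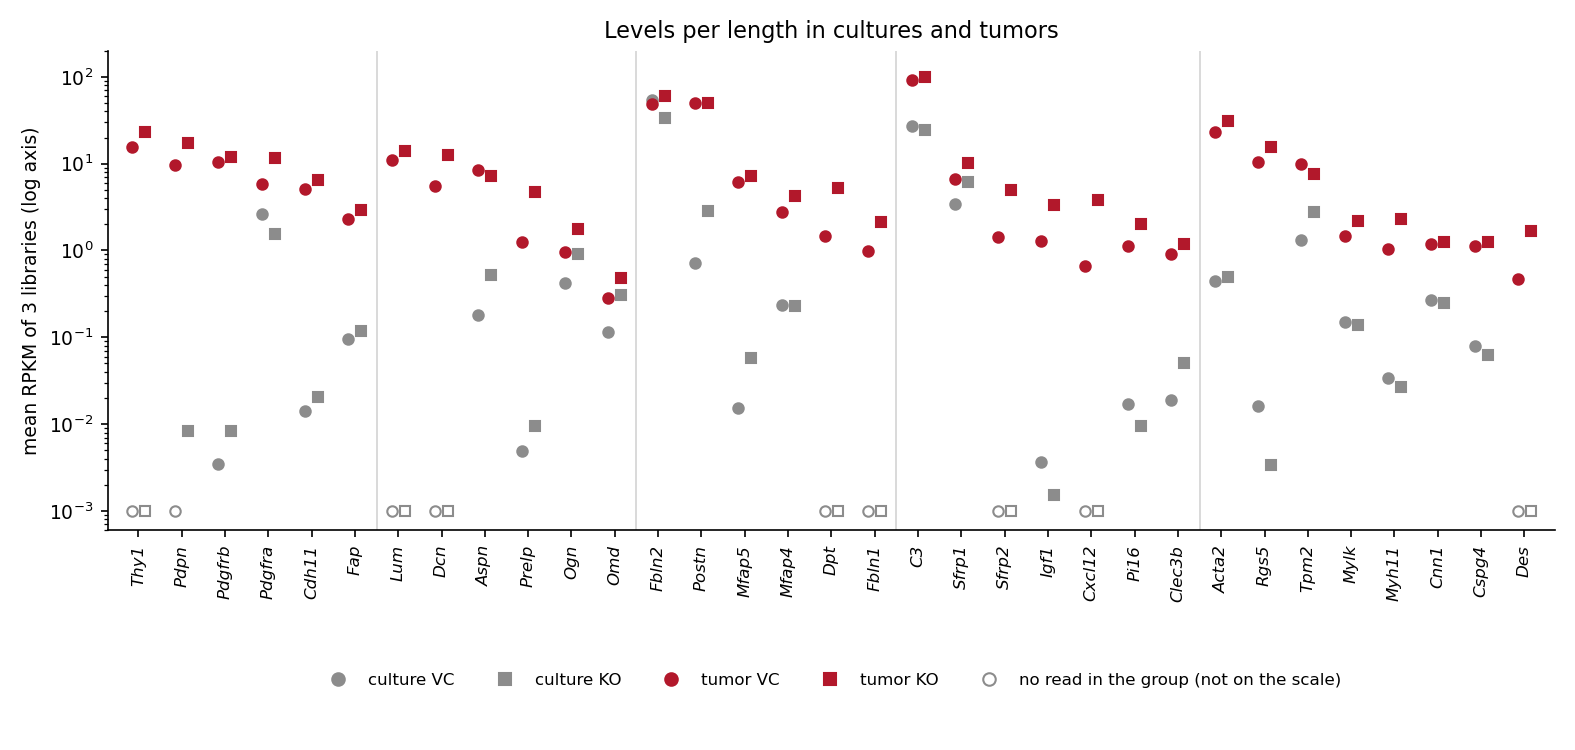
Mean RPKM of the 3 libraries of each group (log axis) for the 33 genes, ordered by role and then by level in tumors; circles are control-labelled, squares knockout-labelled, grey cultures and red tumors. Open symbols at the bottom mark the 8 genes without a read in any culture and Pdpn in the control-labelled cultures, while the tumor means of Fbln2, Sfrp1, Ogn and Omd are between 0.891 and 2.53 times their culture means under both labels.

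Between knockout-labelled and control-labelled tumors no gene of the 33 was called, and none of all 17153 genes tested was (0% called, edgeR adjusted p under 0.05). Of the 32 that passed the filter, all but Omd, 30 had a log2 fold change above 0, where 52.7% of all genes did. The median was 0.60 against 0.02 over all genes, and values ran from -0.38 (Tpm2) to 2.51 (Cxcl12). At an unadjusted p under 0.05, 9 were higher with the knockout label and 0 lower, where 3.09% of all genes were higher. The edgeR adjusted p of the 32 ran from 0.344 to 0.996. DESeq2 called 66 genes of all and a fit of all 12 libraries together called 64. Of the 33, DESeq2 called Prelp, Pdgfra and Dcn, and the joint fit Prelp and Pdgfra.

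In 4 of the 33 genes every knockout-labelled tumor lay above every control-labelled one (Prelp, Pdgfra, Dcn and Des), a pattern that 4.96% of all genes tested showed. The smallest p that an exact two-sided permutation test can give for 3 tumors against 3 is 0.1, and these 4 reached it.

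Prelp, a proteoglycan that anchors basement membranes to connective tissue, lies on the minus strand of mouse build GRCm38 (the assembly of mm10) at chr1:133910304-133921414. It was at 4.88, 4.08 and 4.52 CPM in control-labelled tumors POGZ_VC_8447, POGZ_VC_8448 and POGZ_VC_8451 and at 17.1, 18.6 and 16.0 CPM in knockout-labelled tumors POGZ_KO_8454, POGZ_KO_8455 and POGZ_KO_8459. The groups are far apart relative to their spread, and the knockout-labelled mean was 3.84 times the control mean (log2 fold change 1.95 ± 0.21, edgeR adjusted p = 0.344). By p it ranked 1 of 17153 genes. An antisense gene, Gm15851, shares 350 of the 3615 exonic bases of Prelp and was at 1.06, 0.72 and 0.93 CPM in control-labelled and at 1.65, 1.46 and 1.56 CPM in knockout-labelled tumors, so that some reads may belong to either gene. In cultures Prelp had 1 read in all with the control label and 2 with the knockout label.

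Pdgfra, at chr5:75152292-75198215 on the plus strand, was at 58.6, 53.6 and 61.3 CPM in the control-labelled tumors and at 128, 126 and 91.7 CPM in the knockout-labelled ones. All 3 knockout-labelled tumors were above, with a mean ratio of 1.99 (log2 fold change 0.998 ± 0.168, edgeR adjusted p = 0.647, rank 6 of 17153). Cultured 4T1 cells make Pdgfra too, so its tumor RNA from carcinoma cells and from host cells cannot be told apart. Opposite-strand genes Gm42802 and Gm42803 share 456 and 166 of the 10024 exonic bases of Pdgfra. Neither has counts of its own in these data, so some reads counted for Pdgfra may belong to them.

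The promoters of these genes are shown because Prelp and Pdgfra were the pair whose tumor levels separated by label in all tumors at the smallest p. Both are RefSeq windows on GRCm38.p6, from 250 bases before to 50 after the annotated start, written 5′ to 3′ on the strand of the gene: Prelp at chr1:133921352-133921651 on the minus strand and Pdgfra at chr5:75152001-75152300 on the plus strand. Capitals mark CAGAC or its complement GTCTG, the core of the element bound by SMAD proteins of the TGF-beta pathway, which the title of the series names.
Prelp: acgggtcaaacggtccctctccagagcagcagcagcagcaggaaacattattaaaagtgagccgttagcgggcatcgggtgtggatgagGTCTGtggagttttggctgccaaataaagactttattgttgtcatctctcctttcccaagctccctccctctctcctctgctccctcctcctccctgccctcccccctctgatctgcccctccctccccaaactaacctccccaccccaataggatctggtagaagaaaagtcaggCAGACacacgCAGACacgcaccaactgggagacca
Pdgfra: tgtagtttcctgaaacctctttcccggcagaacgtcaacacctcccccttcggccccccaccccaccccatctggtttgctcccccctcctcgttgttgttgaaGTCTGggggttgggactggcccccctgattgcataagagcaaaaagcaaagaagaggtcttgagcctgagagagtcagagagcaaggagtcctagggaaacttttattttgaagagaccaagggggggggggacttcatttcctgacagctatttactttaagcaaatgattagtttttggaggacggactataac
Prelp has 3 such matches and Pdgfra has 1. A match of this length is common: 49.6% of all 32851 RefSeq windows hold CAGAC on either strand, and so do 13 of the 24 windows that matched 22 of the 33 genes. A match is a description of letters, not a bound site. The CArG box, the element of smooth muscle genes bound by serum response factor, was in 1.63% of all windows on either strand and in 0 of the 24, which says only that its letters are not in these stretches.

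Dcn, the collagen-binding proteoglycan decorin (chr10:97479609-97518143), was at 28.0, 31.8 and 36.5 CPM in control-labelled tumors and at 46.7, 96.8 and 78.3 CPM in knockout-labelled ones. The groups did not overlap, although tumor POGZ_KO_8454 was nearer to the control-labelled tumors than to tumor POGZ_KO_8455 (log2 1.20 ± 0.27, edgeR adjusted p = 0.781). Des, at chr1:75360329-75368579, was low throughout, at 1.70, 1.56 and 1.99 CPM against 2.31, 5.90 and 10.6 (log2 1.84 ± 0.56, edgeR adjusted p = 0.861). Its separation in tumor POGZ_KO_8454 was small.

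The remaining genes of the 8 with the smallest p did overlap between labels. Cxcl12, the chemokine ligand of CXCR4 (chr6:117168535-117181367), was at 3.82, 6.60 and 5.85 CPM in control-labelled tumors. In knockout-labelled tumors POGZ_KO_8454, POGZ_KO_8455 and POGZ_KO_8459 it was at 3.13, 46.8 and 44.5 CPM. The high values were thus in POGZ_KO_8455 and POGZ_KO_8459 and the lowest of the 6 in POGZ_KO_8454 (log2 2.51 ± 0.84, edgeR adjusted p = 0.861). Igf1, an insulin-like growth factor, was at 16.6, 8.51 and 12.9 against 14.6, 25.4 and 60.1 CPM, with tumor POGZ_KO_8459 far above the others. Myh11, the smooth muscle myosin heavy chain, was at 7.64, 6.84 and 9.30 against 7.09, 20.9 and 23.9 CPM, again with tumor POGZ_KO_8454 among the control-labelled values. Sfrp2, a Wnt modulator made by fibroblasts, was at 2.76, 2.16 and 4.38 against 2.97, 22.7 and 6.57 CPM, and its height rests on tumor POGZ_KO_8455. An antisense gene, Gm26771, shares 347 of the 2153 exonic bases of Sfrp2 and was also highest in tumor POGZ_KO_8455, at 5.14 CPM against 0.84 to 1.23 in the others. The log2 fold changes of Igf1, Myh11 and Sfrp2 were 1.42 ± 0.52, 1.13 ± 0.44 and 1.77 ± 0.72 (edgeR adjusted p = 0.861 for each).

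**Figure D2:**
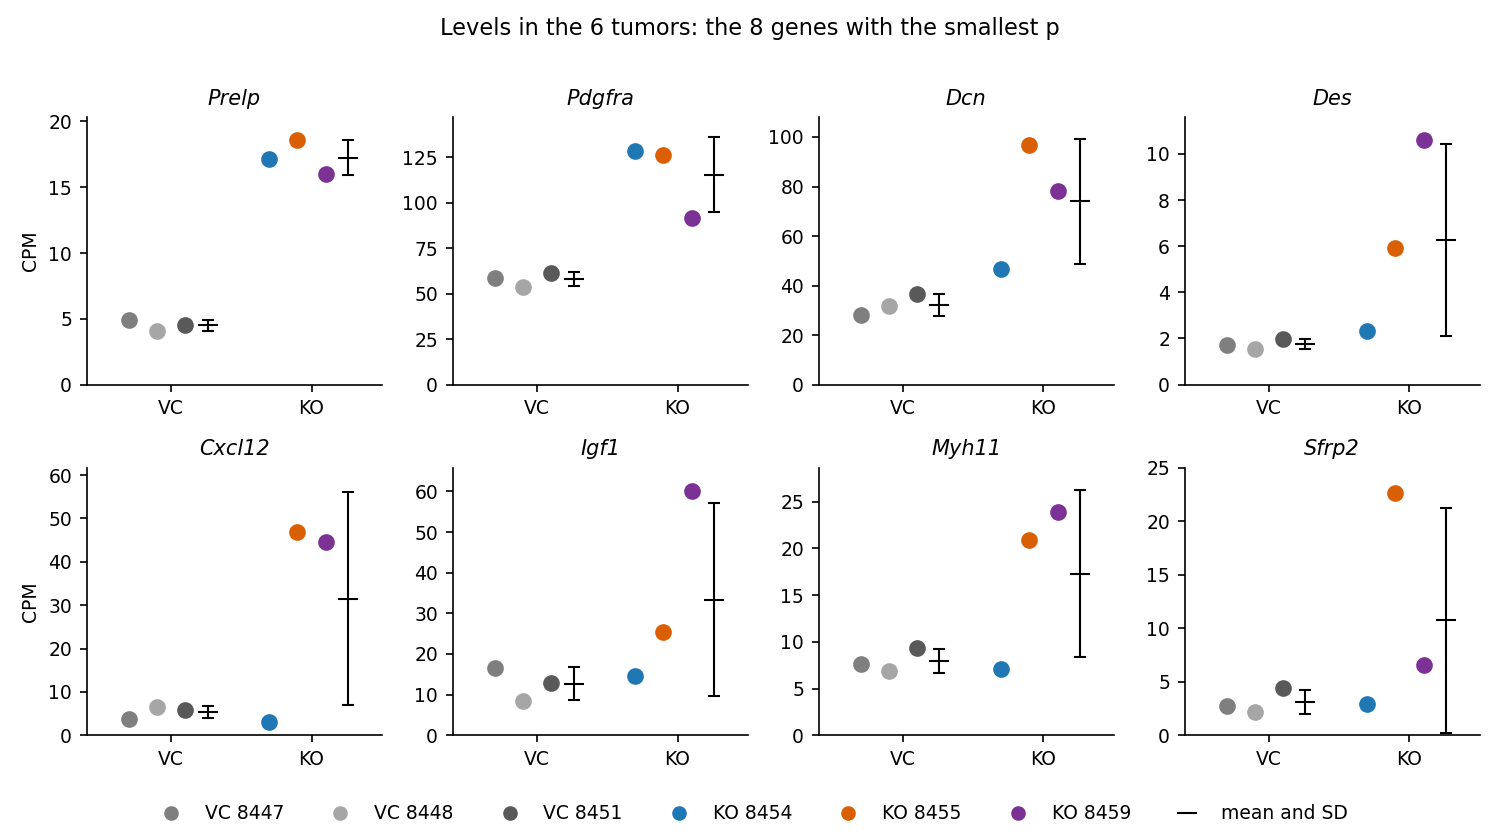
CPM in each of the 6 tumors for the 8 genes of the list with the smallest p between labels, with the mean and SD of the 3 tumors of a label in black; each panel has its own axis from 0. Prelp and Pdgfra separate the labels in all 3 knockout-labelled tumors, while for Cxcl12, Igf1, Myh11 and Sfrp2 tumor POGZ_KO_8454 (blue) lies among or below the control-labelled tumors.

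By role, the median log2 fold change of knockout-labelled over control-labelled tumors was 0.47 for receptors and surface proteins (6 of 6 above 0), 0.92 for the proteoglycans (4 of 5), 0.48 for other matrix genes (6 of 6), 0.81 for secreted genes (7 of 7) and 0.51 for contractile and pericyte genes (7 of 8). The genes that lead each role in level did not separate. Thy1 was at 52.0, 41.9 and 44.9 CPM in control-labelled tumors and at 38.7, 91.2 and 75.9 in knockout-labelled ones. Lum was at 34.6, 22.4 and 24.2 against 32.1, 49.3 and 22.7 CPM. Both overlap between labels, and for Thy1 tumor POGZ_KO_8454 was the lowest of the 6.

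Fbln2 was at 227, 491 and 203 CPM in control-labelled tumors and at 213, 536 and 392 in knockout-labelled ones, with 1 high tumor among the controls. Postn, of similar abundance per length, was at 481, 336 and 474 against 378, 624 and 305 CPM, and its log2 fold change was 0.02 ± 0.28 (edgeR adjusted p = 0.996). C3 was at 732, 198 and 482 against 271, 389 and 893 CPM, a range within each label wider than the difference between their means. Acta2 was at 41.8, 52.4 and 57.9 against 43.7, 84.9 and 73.9 CPM, and tumor POGZ_KO_8454 lay among the controls. For all 4 genes the labels overlapped.

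Fap, the lowest of its role per length, had between 81 and 263 reads in each tumor. Fap was at 17.4, 11.2 and 10.8 against 11.5, 20.2 and 18.0 CPM, and Fbln1 at 3.82, 2.76 and 6.51 against 5.94, 14.2 and 7.71. Omd (0.637, 0.240 and 1.06 against 0.824, 0.843 and 1.56 CPM) and Clec3b (0.637, 1.80 and 0.266 against 0.0824, 1.92 and 1.56) were the lowest of the 33. Clec3b had between 1 and 25 reads in a tumor, its values varied widely within each label, and its log2 fold change was 0.34 ± 0.95. For Tpm2, a tropomyosin, tumors were at 43.5, 20.3 and 23.1 against 14.5, 28.7 and 22.9 CPM, and with Aspn it was 1 of the 2 tested genes whose fold change was below 0. Aspn was at 31.2, 11.9 and 16.1 against 17.6, 21.2 and 11.6 CPM. Control-labelled tumor POGZ_VC_8447 was the highest for both.

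Sfrp1 was at 19.7, 26.5 and 41.1 CPM in control-labelled tumors and at 21.8, 73.5 and 37.0 in knockout-labelled ones, and Ogn was at 4.46, 1.56 and 1.46 against 2.39, 6.29 and 4.84 CPM. In each, tumor POGZ_KO_8455 was the highest of the 6 and the labels overlapped. The genes not given by tumor (Pdgfrb, Pdpn, Cdh11, Dpt, Mfap4, Mfap5, Pi16, Cspg4, Rgs5, Cnn1 and Mylk) had log2 fold changes from 0.12 (Cnn1) to 1.88 (Dpt), and the labels overlapped for each of them. Mean levels of Rgs5, a regulator of G protein signaling that marks pericytes, were 47.1 ± 33.3 and 71.0 ± 13.4 CPM, the wide control spread coming from tumors at 83.4, 18.0 and 40.0.

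**Figure D3:**
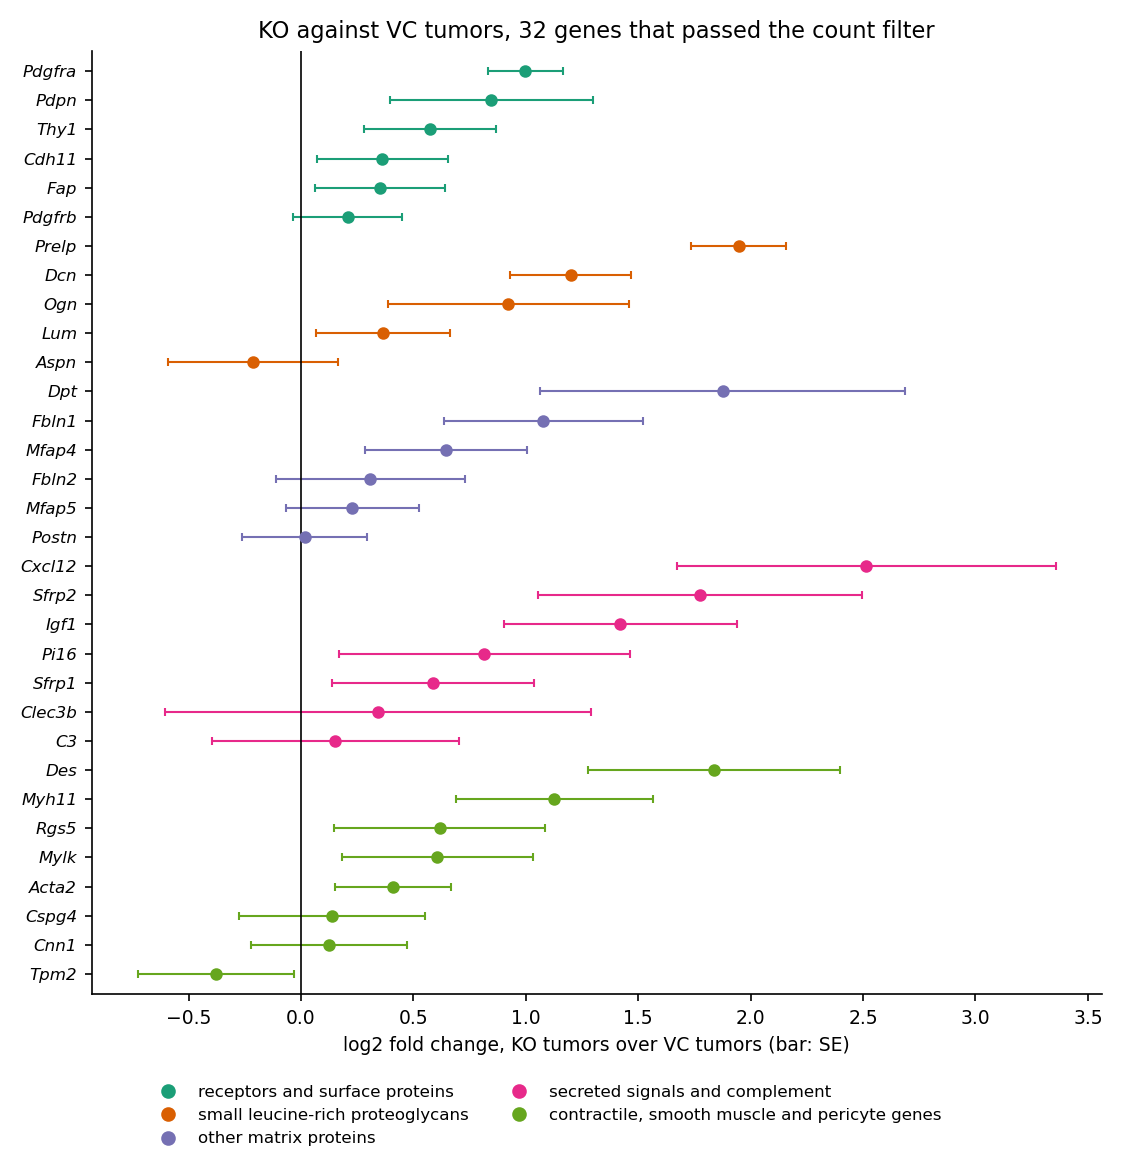
Log2 fold change of knockout-labelled over control-labelled tumors with its SE for the 32 genes that passed the count filter, colored by role. Of these, 30 lie above 0, from 0.02 for Postn to 2.51 for Cxcl12, and only Tpm2 and Aspn lie below.

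The knockout-labelled tumors were unlike each other in these genes. Each was compared with the mean of the 3 control-labelled tumors on the scale log2(CPM + 0.5). Tumor POGZ_KO_8455 had 30 of the 32 tested genes above that mean, with a median log2 ratio of 0.91, and tumor POGZ_KO_8459 had 27 with a median of 0.61. Tumor POGZ_KO_8454 had 10 above, with a median of -0.17, while the median over all genes lay between -0.027 and -0.00090 in the 3 tumors. Of the 33 genes, 22 were highest in tumor POGZ_KO_8455, where 13.5% of all genes tested were, 6 in POGZ_KO_8459 (19.8% of all), 3 in control-labelled POGZ_VC_8447 (17.5%) and 2 in POGZ_KO_8454 (19.2%). A control-labelled tumor stood apart at the other end: 15 of the 33 were lowest in POGZ_VC_8448, where 22.0% of all genes were, and 9 in POGZ_KO_8454, where 18.7% were. For 17 genes tumors POGZ_KO_8455 and POGZ_KO_8459 were the 2 highest of the 6, an order seen in 12.8% of all genes tested. That count does not separate the label from what distinguishes these 2 tumors.

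Without tumor POGZ_KO_8455 alone 24 of 32 genes were above 0 with a median of 0.29, and without tumor POGZ_KO_8454 alone the median was 0.86. With tumors POGZ_KO_8455 and POGZ_KO_8459 both left out, an alternative chosen after the data were seen, 11 of 32 genes were above 0 and the median was -0.16. In that fit Prelp and Pdgfra were at log2 fold changes of 1.94 and 1.16 (edgeR adjusted p = 0.351 and 0.399, with the lone tumor assumed to vary like the controls). In the same fit Dcn was at 0.54 and Des at 0.40, while Cxcl12 (-0.80), Myh11 (-0.16) and Sfrp2 (-0.06) turned below 0.

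Sums of adipocyte, mammary luminal, myoepithelial and B cell markers were higher in tumors POGZ_KO_8455 and POGZ_KO_8459 than in any other tumor. For the other marker lists this did not hold. The 10 adipocyte markers, all with counts in tumors, summed to 61.8, 66.3 and 8.50 CPM in control-labelled tumors POGZ_VC_8447, POGZ_VC_8448 and POGZ_VC_8451 and to 29.7, 178 and 175 CPM in tumors POGZ_KO_8454, POGZ_KO_8455 and POGZ_KO_8459. In tumor POGZ_VC_8451, Adipoq, Plin1, Cidec, Lep, Retn and Pck1 were at 0, and in the knockout-labelled tumors none of the 10 was. The 9 mammary luminal markers summed to between 59.7 and 79.6 CPM in control-labelled tumors and to 74.9, 177 and 501 CPM in the knockout-labelled ones, where the milk protein gene Csn2 reached 230 CPM in tumor POGZ_KO_8459. Lalba was at 0 in all control-labelled tumors. Cultured 4T1 cells make part of this list themselves. Their mean luminal sums were 82.2 CPM with the control label and 74.1 with the knockout label. Esr1 (36.9 and 40.5 CPM) and Areg (42.2 and 29.0) led these sums, while Csn2 and Lalba were at 0. A luminal sum near these values is thus no measure of gland cells. The 7 markers of myoepithelium, the contractile layer of the gland, summed to between 38.3 and 67.6 CPM and to 55.9, 132 and 96.5 CPM. In cultures their mean sums were 15.6 and 6.59 CPM, mostly Krt14 (13.8 and 4.48).

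The 8 B cell markers summed to between 7.17 and 23.8 CPM in control-labelled tumors and to 20.6, 93.1 and 1446 CPM in the knockout-labelled ones, where Jchain, the joining chain of secreted immunoglobulin, was at 1017 CPM in tumor POGZ_KO_8459. Only Cd79b was at 0 in a tumor, control-labelled POGZ_VC_8447. The 10 endothelial markers summed to 323, 186 and 196 against 297, 354 and 320 CPM, and the 10 macrophage markers to 1639, 849 and 1212 against 1444, 1130 and 2648 CPM. The 9 carcinoma epithelial markers summed to 2630, 2733 and 2089 against 2083, 2253 and 1932 CPM. Between tumor labels 1 of these 9 had a log2 fold change above 0 (median -0.12), where 52.7% of all genes did, and 0 were called. The part of fat or immune cells in the values of the 33 genes was not tested. In tumor POGZ_KO_8454 the adipocyte, luminal, myoepithelial and B cell sums lay within the range of the control-labelled tumors, but single markers did not. Of the 9 luminal markers 5 were above every control-labelled tumor there, with Csn2 at 11.1 CPM against at most 2.33 and the milk casein Csn1s1 at 6.84 against at most 0.849, while the estrogen receptor Esr1, at 30.7 to 52.1 CPM in the control-labelled tumors, leads their luminal sum. Of the 7 myoepithelial markers the basal transcription factor Trp63 was above the control-labelled tumors (25.3 against at most 7.003 CPM). Krt14 (8.16 against at least 16.2 CPM), Krt17 (0.247 against at least 0.480) and Lgals7 (0.247 against at least 0.839) were below all of them. The luminal marker Areg was below them too (4.20 against at least 6.91 CPM). Of the 8 B cell markers 2 were above them, among them the immunoglobulin heavy chain Ighm (14.2 against at most 11.04), and of the 10 adipocyte markers 0 were. Prelp and Pdgfra were above every control-labelled tumor there as well. In tumors POGZ_KO_8454, POGZ_KO_8455 and POGZ_KO_8459 Csn2 was at 11.1, 32.4 and 230 CPM. Prelp was at 17.1, 18.6 and 16.0 CPM in these tumors and Pdgfra at 128, 126 and 91.7. The part of gland cells in the values of Prelp and Pdgfra was not tested.

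**Figure D4:**
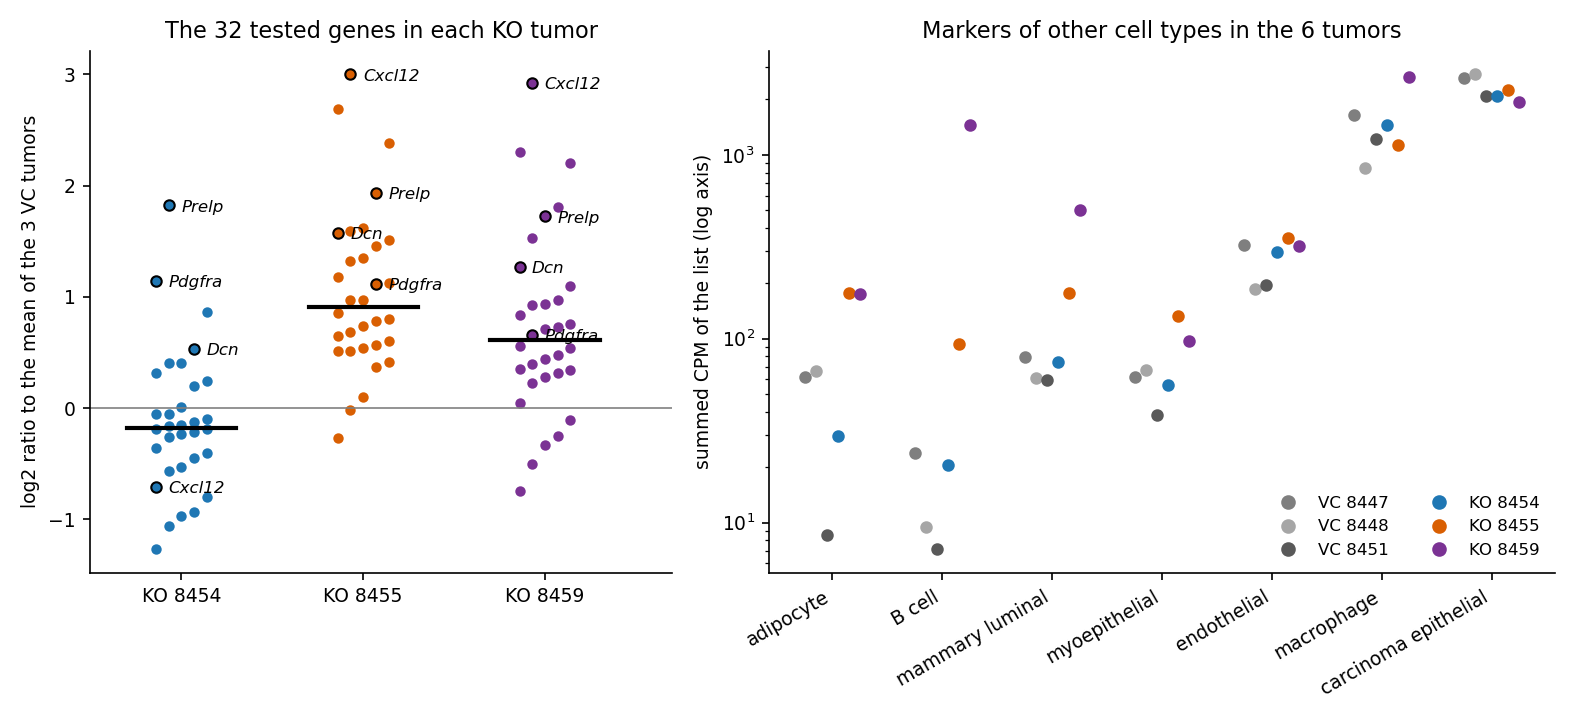
Left, log2 ratio of each of the 32 tested genes in each knockout-labelled tumor to the mean of the 3 control-labelled tumors, with the median as a black line at -0.17, 0.91 and 0.61. Right, summed CPM (log axis) of 7 marker lists in the 6 tumors. The adipocyte, B cell, luminal and myoepithelial sums of POGZ_KO_8455 and POGZ_KO_8459 lie above the other 4 tumors. Carcinoma sums run from 1932 CPM (POGZ_KO_8459) to 2733 (POGZ_VC_8448).

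In culture, where no host cell is present, the genes that 4T1 cells express differed between labels. Of the 14 genes that passed the filter 6 were called higher with the knockout label, where 23% of all genes tested were, and 3 were called lower, where 24.9% were. With 14 genes tested, nothing particular to the list is read from these counts. In the fit of all 12 libraries together, which shares 1 estimate of spread between cultures and tumors, the calls of Postn, Tpm2 and Pdgfra held. Those of Fbln2, Sfrp1, Ogn, Omd, Aspn and C3 were lost with log2 fold changes close to those given next (edgeR adjusted p from 0.0773 for Aspn to 0.898 for C3).

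Postn differed most. It was at 7.28, 6.28 and 5.24 CPM in control-labelled cultures and at 25.6, 25.4 and 24.3 CPM in knockout-labelled ones (log2 fold change 2.01 ± 0.10, edgeR adjusted p = 1.09e-08), with no overlap. Tpm2 rose from 4.74, 3.49 and 3.19 CPM to 8.17, 8.49 and 7.87 (log2 1.11 ± 0.14, edgeR adjusted p = 4.13e-05), and Sfrp1 from 15.2, 16.7 and 13.3 CPM to 27.6, 27.6 and 25.3 (0.84 ± 0.08, edgeR adjusted p = 4.07e-06). In each of these 3 genes the lowest knockout-labelled culture was well above the highest control.

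RefSeq gives 2 starts for Postn, and the window of the one at chr3:54360857-54361156 on the plus strand (GRCm38.p6) is shown because this gene had the largest difference in culture. Capitals mark TATAAA, the TATA box, which begins 26 bases before the start.
Postn: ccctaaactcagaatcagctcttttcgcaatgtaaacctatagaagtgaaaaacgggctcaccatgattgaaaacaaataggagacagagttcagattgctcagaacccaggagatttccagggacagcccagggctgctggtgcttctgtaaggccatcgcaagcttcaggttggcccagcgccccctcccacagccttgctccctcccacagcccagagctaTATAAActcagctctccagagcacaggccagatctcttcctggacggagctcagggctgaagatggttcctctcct
TATAAA is present on either strand in 13.6% of all windows of this length and, among the 22 matched genes, in windows of Aspn, C3, Dpt, Ogn and Postn. No overlap with the other motifs occurs in this window, which holds no CAGAC. The window of the other Postn start holds CAGAC, beginning at position -191 relative to that start, and no TATAAA.

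Pdgfra and Fbln2 were lower with the knockout label in culture. Pdgfra fell from 25.9, 25.3 and 28.4 CPM to 15.4, 16.2 and 15.3 (log2 -0.76 ± 0.07, edgeR adjusted p = 2.67e-06), and Fbln2 from 358, 340 and 337 CPM to 213, 222 and 214 (-0.67 ± 0.04, edgeR adjusted p = 6.41e-08). C3 was at 144, 138 and 136 against 121, 129 and 123 CPM, a called but small difference (-0.16 ± 0.04, edgeR adjusted p = 0.00691). The C3 call was lost without knockout-labelled culture 1 (edgeR adjusted p = 0.0530) or culture 3 (0.0524).

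The 3 proteoglycan genes inside Cenpp were called higher with the knockout label at low levels. Ogn was at 1.24, 0.912 and 1.08 against 3.24, 2.11 and 1.74 CPM (log2 1.12 ± 0.27, edgeR adjusted p = 0.00462). Aspn was at 0.508, 0.536 and 0.216 against 1.45, 1.02 and 1.23 CPM (1.56 ± 0.33, edgeR adjusted p = 0.00184). Omd was at 0.339, 0.322 and 0.108 against 0.869, 0.611 and 0.595 CPM (1.41 ± 0.42, edgeR adjusted p = 0.0140), a call lost when culture 3 of the controls or culture 1 of the knockout label was left out (edgeR adjusted p = 0.0584 and 0.0589) and in DESeq2. Cenpp itself was at 6.72 to 7.62 CPM in control-labelled and 6.91 to 9.17 in knockout-labelled cultures (log2 0.17, edgeR adjusted p = 0.285). The other 5 tested genes, Fap, Acta2, Cspg4, Cnn1 and Mylk, were not called, with log2 fold changes from -0.34 to 0.29.

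**Figure D5:**
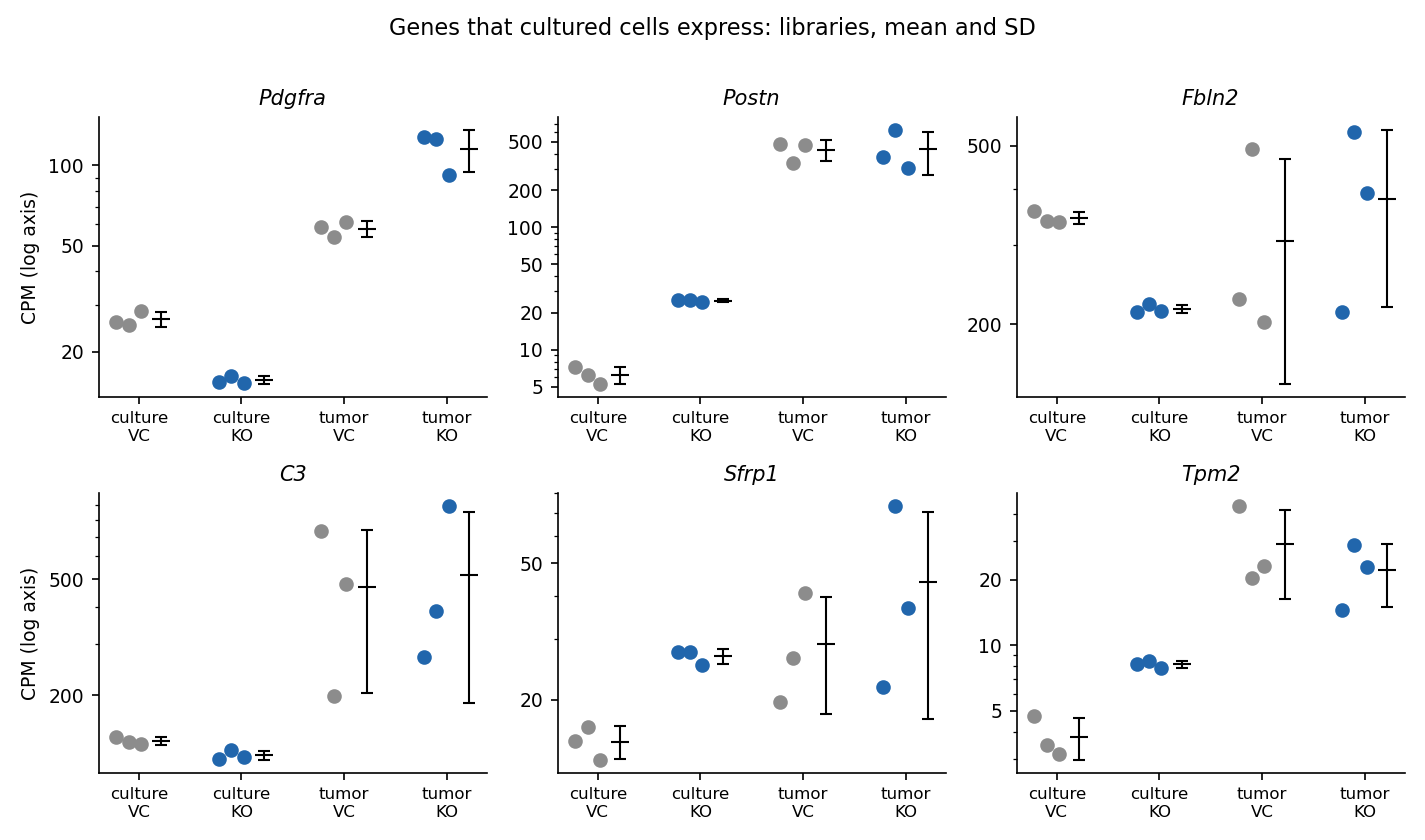
CPM (log axis, a separate range per panel) in each library of the 4 groups for the 6 genes of the list called in culture at more than 3 CPM, with the mean and SD in black. Pdgfra is lower with the knockout label in cultures and higher in tumors, and Postn is higher in cultures and alike in mean in tumors (430 and 436 CPM).

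The effect of the label was compared between systems by a direct test of the difference, tumor effect minus culture effect, in a fit of all 12 libraries. Of the 33 genes 1 was called with a positive difference and 1 with a negative one, where 2.05% of all genes tested were called in either direction. For Pdgfra the difference was 1.76 ± 0.18 on the log2 scale (edgeR adjusted p = 0.000713). Its mean went from 26.5 to 15.6 CPM between labels in culture and from 57.8 to 115 CPM in tumors. For Postn it was -1.99 ± 0.33 (edgeR adjusted p = 0.0102), with means of 6.27 and 25.1 CPM in culture and 430 and 436 CPM in tumors. A change in CPM of the size seen in culture would hardly move the log2 value at that tumor level. The Postn test therefore cannot tell whether carcinoma cells responded to the label differently in tumors. Tpm2 (-1.48 ± 0.42, edgeR adjusted p = 0.113) and Aspn (-1.76 ± 0.59, edgeR adjusted p = 0.168) did not pass. The 8 genes without a read in culture gave no usable estimate of this difference, and the differences for Prelp (1.19 ± 1.70) and other genes with a few culture reads were too uncertain to read.

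Genes of related programs outside the list were counted from 6 lists. Over all genes tested, 35.7% were called higher and 29.5% lower in tumors than cultures with the control label, and 35.3% and 26% with the knockout label. Between tumor labels 52.7% were above 0, and in culture 23% were called higher and 24.9% lower with the knockout label. Counts of a few genes near these shares, such as those of the smooth muscle contraction list against cultures, are not results about a list. A listed gene that passed the filter only through its tumor libraries had to differ from cultures. Counts of genes called higher in tumors than cultures therefore describe the genes and are not support for a difference of any list. Of 24 collagen and fibroblast matrix genes, 22 of 23 tested were called higher in tumors than cultures with the control label and 24 of 24 with the knockout label. Collagen VI chain Col6a3 stood at 0.108 ± 0.052 CPM in control-labelled cultures and 269 ± 30.4 in their tumors (log2 11.1 ± 0.21, edgeR adjusted p = 1.68e-07). Bgn, a proteoglycan related to Dcn, stood at 0.636 ± 0.156 and 246 ± 9.28 CPM. Between tumor labels 0 of 24 were called and 22 were above 0, with a median of 0.39; type I collagen chain Col1a1 was at 1170.5 ± 263 and 1742 ± 483 CPM (log2 0.58 ± 0.25, edgeR adjusted p = 0.861). In culture 4 of 13 were called higher and 5 lower with the knockout label: Sparc, a collagen-binding matricellular protein, and Fn1, fibronectin, rose (log2 1.4 ± 0.045 and 1.29 ± 0.05), while Tnxb and Col12a1 fell (-1.87 ± 0.15 and -1.52 ± 0.15).

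Of 15 further pericyte genes, 12 of 12 tested with the control label and 14 of 14 with the knockout label were called higher in tumors than cultures, and 0 of 13 were called between tumor labels (10 above 0, median 0.66). Abcc9, a potassium channel subunit of pericytes, had no read in either culture group and was at 15.6 ± 7.85 and 25.2 ± 1.1 CPM in tumors. Notch3, a receptor of mural cells, was at 26.1 ± 5.03 CPM in control-labelled and 15.8 ± 5.97 in knockout-labelled tumors. In culture Mcam was called higher and Notch3 lower with the knockout label (log2 0.54 ± 0.07 and -1.52 ± 0.34).

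Smooth muscle contraction genes, many of them also cytoskeletal genes of carcinoma cells, were split. With the control label 7 of 17 tested were called higher in tumors than cultures and 5 lower, and with the knockout label 8 higher and 4 lower. Myl9 and Tagln, which encode a myosin light chain and transgelin, were among the higher (log2 7.66 ± 0.60 and 5.25 ± 0.29 with the control label). Between tumor labels 0 of 17 were called, 17 were above 0 and the median was 0.18. In culture 5 of 13 were called higher with the knockout label and 3 lower, among them Tpm1 (0.45 ± 0.06) and Smtn (-0.45 ± 0.04).

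Of 15 PDGF and fibroblast growth signals, 7 of 12 tested were called higher and 4 lower in tumors than cultures with the control label, and 8 and 2 with the knockout label. Hgf, hepatocyte growth factor, stood at 0.018 ± 0.031 CPM in control-labelled cultures and 8.92 ± 2.83 in their tumors. Pdgfd, a ligand of Pdgfrb, had no read in the control-labelled cultures and was at 3.87 ± 0.65 CPM in their tumors. Between tumor labels 0 of 11 were called, with 8 above 0. In culture 5 of 9 were called higher and 2 lower with the knockout label, with Pdgfb, a ligand of both PDGF receptors, at 39.4 ± 0.56 and 61.7 ± 0.40 CPM (log2 0.65 ± 0.04, edgeR adjusted p = 1.56e-07).

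Of 15 inflammatory fibroblast signals, 8 of 12 tested were called higher in tumors than cultures under each label, with 3 lower under the control label and 4 under the knockout label. The chemokine Cxcl14 was at 0 in control-labelled cultures and 91.5 ± 21.1 CPM in their tumors. Ptgs2, the inducible cyclooxygenase, was at 726 ± 25.7 CPM in control-labelled cultures and 101 ± 42.8 in their tumors (log2 -2.83 ± 0.29, edgeR adjusted p = 8.35e-05). Between tumor labels 0 of 14 were called, with 10 above 0. In culture 1 of 7 was called higher, the chemokine Ccl2 (1.42 ± 0.08), and 5 lower, among them Il33 (-3.50 ± 0.26) and the hyaluronan synthase Has2 (-1.35 ± 0.05).

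Of 17 adventitial fibroblast genes, 13 of 15 tested were called higher and 1 lower in tumors than cultures under each label. The fibroblast transcription factor Prrx1 was at 0.147 ± 0.068 CPM in control-labelled cultures and 68.0 ± 9.47 in their tumors, and at 77 ± 35.9 in knockout-labelled tumors. Between tumor labels 0 of 16 were called, with 10 above 0 and a median of 0.29. In culture 2 of 6 were called higher with the knockout label, Gsn and Pcolce2 (log2 0.52 ± 0.04 and 0.28 ± 0.04), and 3 lower, among them Scara5 (-1.19 ± 0.26).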

How the data were processed

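The authors deposited raw read counts per gene, in 1 table for the cultures and 1 for the tumors. The submitters' processing notes list featureCounts 1.4.4, STAR 2.3.0e, Trimmomatic 0.32 and the mm10 build. Their settings, the annotation release and the strand setting are not given in the sources used here. Per the labels' protocols, libraries were made from total RNA depleted of ribosomal RNA, so unspliced RNA may be counted too.

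Counts were tested in R 4.3.3 with edgeR 4.0.16: filterByExpr, TMM scaling, the quasi-likelihood test without a block, and Benjamini-Hochberg adjustment over all genes tested, with a call at an adjusted p under 0.05. Pairs of groups, 3 libraries each, were fitted apart, and the difference of the label effects between systems over all 12. The SE divides the log2 fold change by the root of the F statistic. CPM came from library totals, and RPKM, used to compare genes, from the exon length in GENCODE M21. Where a group had no reads, 3 counts per library were used as its floor. The fits were tested on simulated data, where the fit between tumor labels recovered 9.3% of 2-fold and 73.2% of 4-fold changes. The lack of calls between tumor labels therefore does not show that genes were unchanged.

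Values by library are given for the 8 of the 33 genes with the smallest p between tumor labels, for the highest and lowest per length of each role, and for those called in culture. From each other list, up to 4 called genes of smallest p per comparison were eligible to be named, or the 2 of highest mean where none was called. Overlapping genes and single marker genes were named after their values were seen. The 33 genes, the 6 pathway and 12 marker lists and the tests were chosen with earlier results of these data known.

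Alternatives were RLE and upper-quartile scaling, other filters, DESeq2 1.42.0, an adjusted p of 0.01, removal of structural RNA and mitochondrial genes, all 12 libraries in 1 fit, thinned tumors, a replicate block in cultures and leaving out each library. Leaving out tumors POGZ_KO_8455 and POGZ_KO_8459 together was added after the data were seen.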

Additional observations from a re-analysis of the deposited data

Results flagged for a closer look

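The effect of the knockout label on Pdgfra differed between tumors and cultures by the direct test, by 1.76 on the log2 scale (higher in 3 of 3 knockout-labelled tumors than in any control-labelled tumor, lower in 3 of 3 knockout-labelled cultures). The size ran from 1.66 to 1.89 over 19 alternatives. For Postn the difference was -1.99 on the log2 scale: 3 of 3 knockout-labelled cultures were above every control-labelled culture, and in tumors 1 of 3 was above every control-labelled tumor. The Postn difference had an edgeR adjusted p of 0.0102 and missed a threshold of 0.01. In both genes the tumor RNA of carcinoma cells and of host cells cannot be told apart. Tumor Postn was so far above its culture level that a change in CPM of the size seen in culture would hardly show there.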

How the results depend on the processing

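Between tumor labels, the number of the 33 genes called higher was 0 in edgeR under every scaling and filter and with any library left out, 3 in DESeq2 and 2 with all 12 libraries in 1 fit. Prelp and Pdgfra kept log2 fold changes of 1.88 to 1.99 and 0.91 to 1.16 over 16 alternatives. Leaving out tumors POGZ_KO_8455 and POGZ_KO_8459 turned the median of the tested genes to -0.16, Cxcl12 to -0.80, Myh11 to -0.16 and Sfrp2 to -0.063, and, against cultures, Fbln2 to -0.11, Ogn to -0.045 and Sfrp1 to -0.38 with 2 genes called lower. That alternative leaves 1 knockout-labelled tumor. Against cultures with the control label, leaving out single libraries gave 0 to 1 genes called lower and Fbln2 between -0.71 and 0.028. In cultures, all 12 libraries in 1 fit left 2 genes called higher and 1 lower, and the cause was not tested. The difference between systems had 2 genes called lower in DESeq2 and 0 at an adjusted p of 0.01, where Postn missed. Of the single-gene values under alternatives, 420 kept their direction and side of the threshold, 10 passed it newly, 22 no longer passed and 8 reversed. The culture numbers did not pair the libraries (correlations of deviations -0.15, 0.02 and 0.08 for equal numbers), and with a replicate block 6 genes were still called higher and 3 lower. Counting precision is lowest in the control-labelled tumors, the shallowest with 4712001 reads.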

Other observations

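Markers of further cell types gave these sums in tumors. The 8 neutrophil markers summed to 68.3, 448 and 372 CPM in control-labelled tumors POGZ_VC_8447, POGZ_VC_8448 and POGZ_VC_8451 and to 134, 525 and 141 CPM in knockout-labelled tumors POGZ_KO_8454, POGZ_KO_8455 and POGZ_KO_8459, a spread within each label of several-fold. The 10 T and NK cell markers ran from 40.8 to 71.9 CPM with the control label and from 46.1 to 132 with the knockout label, highest in tumor POGZ_KO_8459. The 10 skeletal muscle markers ran from 24.2 to 73.9 and from 11.1 to 49.9 CPM, the 7 Schwann cell markers from 73.5 to 109 and from 88.8 to 101 CPM, and the 8 keratinocyte markers from 8.64 to 14.99 and from 6.40 to 10.97 CPM. Of these 5 lists no gene was called between tumor labels by edgeR.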
